A study of Mus musculus with 20 samples.

Results

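The hepatic stellate cells and myofibroblasts of mouse liver were read through 10 marker genes: Acta2, Tagln, Myl9, Des, Vim, Ngfr, Reln, Ecm1, Hand2 and Colec11. The genes were taken by name from a table of 38924 genes, and all 10 were among the 14524 genes that were tested (FPKM above 0.5 in at least 5 of the 20 libraries). FPKM is the number of fragments of a gene divided by its length and by the depth of its library, so levels of different genes can be set side by side. In control diet WT livers alone every member lay above 0.5 FPKM in all 5 libraries.

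RNA came from 20 livers of male mice, 5 per group, fed for 12 weeks either control chow or CDAHFD, a chow rich in fat, with defined amino acids and without choline, that gives rise to steatohepatitis and fibrosis. The groups were WT on control diet (NDWT), TSP-1 null on control diet (NDKO), WT on CDAHFD (HFWT) and TSP-1 null on CDAHFD (HFKO). WT mice were C57BL/6J and TSP-1 null mice were a purchased line lacking thrombospondin-1, a matrix glycoprotein that can activate latent TGF-β. All were 5 weeks old at purchase and were acclimated for 1 week before the diet. Poly(A) RNA was taken from 1 piece of 1 lobe (right medial in the series description, right lateral in the paper), so every value is an average over all cells of that piece.

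In the healthy liver, stellate cells lie between hepatocytes and the sinusoidal endothelium, store vitamin A and express desmin, reelin and the transcription factor Hand2. When the liver is injured they lose their lipid droplets and become contractile, collagen-producing myofibroblasts, for which α-smooth muscle actin, the product of Acta2, is the usual marker. In whole liver, fewer cells of a type and less RNA per cell cannot be told apart. Of the defining stellate genes outside the 10 members, Lrat makes the retinyl esters that these cells store. It had a median of 3.11 FPKM in NDWT (2.167 to 3.486) and 5.51 FPKM in HFWT (1.874 to 7.937), so the groups overlapped. Pdgfrb, the PDGF receptor of these cells, had medians of 2.12 FPKM (1.415 to 2.225) and 11.2 FPKM (9.71 to 19.919). Both genes were read in every library.

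The knocked-out gene was read before any comparison between genotypes. Thbs1 ran from 0.058 to 0.326 FPKM in NDWT, from 0.986 to 1.895 in NDKO, from 3.46 to 6.099 in HFWT and from 3.048 to 4.398 in HFKO. This goes against the labels on the control diet, where the lowest NDKO library lay above the highest NDWT library, and on CDAHFD the groups overlapped. Which exons the fragments fell on cannot be read from a value per gene. TSP-1 null therefore means, throughout, libraries labelled so.

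Acta2 and Myl9 belong to the genes through which serum response factor controls the contractile apparatus, by binding CArG boxes close to the start site. A promoter sequence was given for 9 of the 10 members (RefSeq, GRCm38.p6, 250 bases before to 50 after the start). Tagln had none, so whether it holds a CArG box was not searched. These were searched on both strands for the CArG box, read as CC, then 6 central bases of which at least 5 are A or T, then GG. Acta2 and Myl9 were the 2 of 9 members that held one. Of all 32851 promoters of this length 9.98% held at least one. In Acta2 the boxes lay at −84 to −75 and −34 to −25 from the start, and a GGAATG motif, the core bound by TEAD factors, lay at −146 to −141 (held by 14.7% of promoters). In Myl9 the boxes lay at −161 to −152 and −99 to −90. The stretches that hold them are printed 5′ to 3′ on the strand of the gene, with CArG boxes and GGAATG in capitals. Both genes are contractile and were higher on CDAHFD in both genotypes, but whether the boxes bear on this was not tested. The printed stretches lie upstream of the gene bounds given in the files, at chr19:34255389-34255528 (minus strand) for Acta2 and chr2:156775294-156775383 (plus strand) for Myl9.
Acta2: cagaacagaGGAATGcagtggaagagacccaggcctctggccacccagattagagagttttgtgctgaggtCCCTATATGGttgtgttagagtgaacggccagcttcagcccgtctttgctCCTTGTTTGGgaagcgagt
Myl9: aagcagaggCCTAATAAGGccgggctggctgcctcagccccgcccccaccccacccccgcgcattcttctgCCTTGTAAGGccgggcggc

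A box with all 6 central bases A or T was held by 1.63% of promoters and, of the members, by Myl9 only. The other motifs searched were TGANTCA, bound by AP-1, which Ecm1 held at −64 to −58 (7.81% of promoters), and CAGAC, bound by SMAD factors, which 4 of 9 members and 49.6% of promoters held. Of the 19 genes of a list of contractile genes with a promoter sequence, Cnn2, Myl6, Srf and Vcl held a CArG box. A match of letters is a description and no binding was measured.

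On GRCm38, the build of the files, the contractile genes lie at chr19:34241090-34255336 (Acta2), chr9:45929628-45936058 (Tagln) and chr2:156775420-156781658 (Myl9). The filament genes lie at chr1:75360329-75368579 (Des) and chr2:13573927-13582826 (Vim). Ngfr lies at chr11:95568818-95587735 and Hand2 at chr8:57320983-57324517. The genes for secreted products lie at chr5:21884454-22344702 (Reln), chr3:95734147-95739569 (Ecm1) and chr12:28594173-28623290 (Colec11). Thbs1 shares chromosome 2 with Myl9 and Vim, at distances of 38.6 and 104.53 Mb. Within the bounds of 4 members other annotated genes lie: Pcsk7 in Tagln (at most 11.2 FPKM), 6 genes in Reln (at most 1.83 FPKM), Gm15179 in Des (at most 0.058 FPKM) and a microRNA gene in Ecm1 (0 FPKM).

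On the control diet the 10 genes spanned a wide range of levels. Ecm1, a secreted glycoprotein, stood first in NDWT with a median of 50.4 FPKM (44.2 to 70.3), and Colec11, a secreted lectin that starts the lectin pathway of complement, second with 25.3 FPKM (19.5 to 27.9). Vim, the intermediate filament of mesenchymal cells and leukocytes, followed with 9.18 FPKM, and these 3 did not overlap with each other or with the next gene. Reln, Tagln and Hand2 formed a middle group with medians of 3.75, 3.06 and 2.92 FPKM, where Reln overlapped with Tagln and Tagln with Hand2. Ngfr, Des, Myl9 and Acta2 stood lowest, with medians of 1.695, 1.03, 0.903 and 0.700 FPKM, and each overlapped with the next. Acta2 in NDWT rested on 19 to 29 fragments per library, so small differences there were not detectable at this depth.

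**Figure D1:**
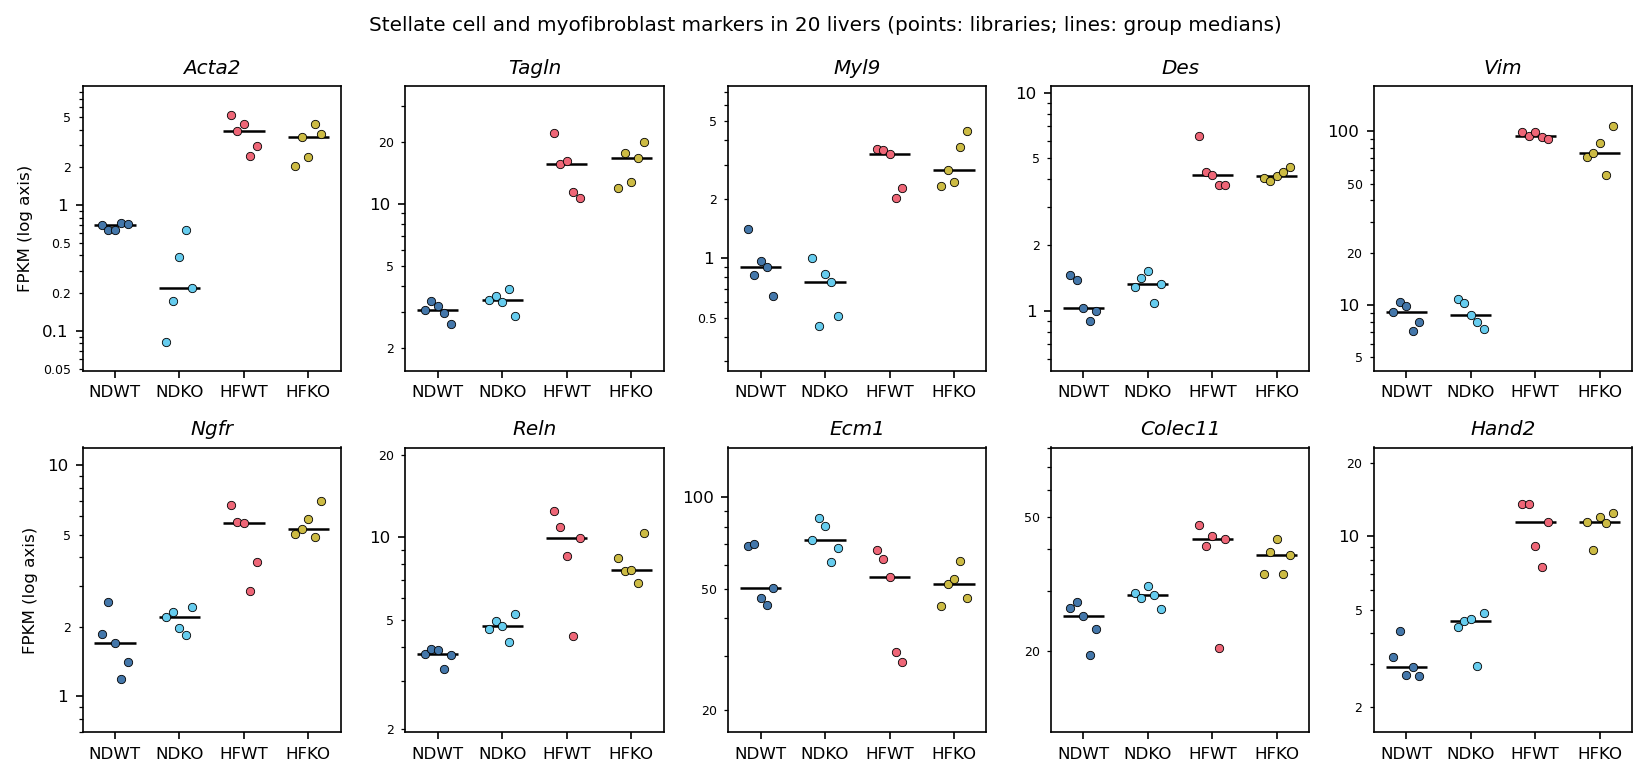
FPKM of each of the 10 markers on a log axis, with 1 point per library for the 5 livers of each of the groups NDWT, NDKO, HFWT and HFKO and a line at the group median. Vim shows the widest gap between diets (7.113 to 10.81 FPKM on control diet and 56.1 to 107 on CDAHFD), Ecm1 shows overlapping diets, and the points of Acta2 in NDKO run from 0.082 to 0.632 FPKM.

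The first question was how the diet moved these markers in WT liver. Of the 10 members, 9 were called higher and 0 lower in HFWT than in NDWT, at an FDR under 0.05 and an absolute log2FC above 0.58, while Ecm1 was called in neither direction. Of all tested genes 44.1% were called higher and 4.62% lower in this comparison, so a higher call alone says little here. All 5 HFWT libraries lay above all 5 NDWT libraries for 8 members (Ecm1 and Colec11 overlapped) and for 50.5% of all tested genes. The median log2FC was 1.66 over the members and 0.53 over all tested genes. When libraries were scaled by the median of ratios, the median of all genes moved to −0.02, that of the members was 1.12, and 8 members were called higher and 1, Ecm1, lower. The calls over all genes split 90.5% higher on the deposited scale, 58.0% under median of ratios and 49.5% under quantile normalization, where 8 members were higher and 0 lower. Of all genes, 3136 were called higher and 2268 lower of 14322 tested under median of ratios. Under quantile normalization the numbers were 2514 and 2562 of 14524. Log2FC are therefore also given relative to the median of all genes.

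Among the contractile genes, Acta2 read 0.7, 0.639, 0.631, 0.72 and 0.704 FPKM in NDWT 1 to 5 and 5.228, 3.874, 4.431, 2.477 and 2.988 in HFWT 1 to 5. The groups did not overlap, and HFWT 4 and 5 were the lowest of the HFWT libraries. Its log2FC was 2.28 (SE 0.29, FDR 1.01e-06, limma), a 4.85-fold difference on the scale of FPKM + 0.1 and 1.75 above the median of all genes. Tagln, which encodes the actin-binding protein transgelin, read 3.061, 3.362, 3.188, 2.939 and 2.623 FPKM in NDWT and 22.043, 15.693, 16.142, 11.474 and 10.688 in HFWT. Here too HFWT 1 was highest, and HFWT 4 and 5 lowest. The log2FC was 2.24 (SE 0.17, FDR 6.16e-10, limma). Myl9, a regulatory light chain of smooth muscle myosin, ran from 0.647 to 1.405 FPKM in NDWT and from 2.028 to 3.599 in HFWT, with a log2FC of 1.55 (SE 0.23, FDR 6.46e-06, limma). Tagln overlaps Pcsk7, and whether counting used the strand is not given in the sources used here, so fragments of the overlap are uncertain.

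Both intermediate filament genes rose. Vim read 9.181, 10.419, 9.912, 7.113 and 7.986 FPKM in NDWT and 99.288, 94.022, 99.309, 92.919 and 90.729 in HFWT. It was the member with the largest difference, a log2FC of 3.41 (SE 0.14, FDR 4.30e-13, limma), higher than that of 98.4% of tested genes, and its HFWT libraries were the closest to each other of any member (coefficient of variation 4.07%). Des, the filament gene of muscle and of rodent stellate cells, went from 0.900 to 1.465 FPKM in NDWT to 3.752 to 6.312 in HFWT (log2FC 1.86, SE 0.14, FDR 8.10e-10, limma). Leukocytes also carry vimentin. Of 7 macrophage markers tested in WT, 3 were called higher, among them Lyz2 and Cd68, and 2 lower, the resident macrophage genes Timd4 and Clec4f. Of all tested genes 44.1% were called higher and 4.62% lower. The list median log2FC was 0.34, against 0.53 over all genes. The summed FPKM of the 7 was 194 to 263 in NDWT and 949 to 1311 in HFWT. Most of the sum in HFWT was Lyz2, which ran from 37.7 to 50.4 FPKM in NDWT and from 729 to 955 in HFWT. The part of leukocytes in the Vim difference was not tested.

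Ngfr, the low-affinity receptor for neurotrophins, ran from 1.184 to 2.556 FPKM in NDWT and from 2.866 to 6.715 in HFWT (log2FC 1.44, SE 0.20, FDR 3.27e-06, limma). Hand2, a basic helix-loop-helix transcription factor, ran from 2.669 to 4.102 and from 7.469 to 13.605 FPKM (log2FC 1.78, SE 0.17, FDR 1.60e-08, limma). Both rose without overlap between the groups, with HFWT 4 lowest in each case.

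The 3 secreted products differed from each other. Reln, whose product reelin is a large matrix glycoprotein, read 3.745, 3.933, 3.889, 3.305 and 3.73 FPKM in NDWT and 12.515, 10.884, 8.533, 4.355 and 9.908 in HFWT (log2FC 1.21, SE 0.19, FDR 1.27e-05, limma). HFWT 4 lay just above the NDWT libraries and the other 4 at 8.533 FPKM or more. Colec11 read 26.715, 27.945, 25.347, 19.467 and 23.16 FPKM in NDWT and 47.129, 40.904, 43.799, 20.444 and 42.918 in HFWT. HFWT 4 fell within the NDWT range while the other 4 lay above it. The log2FC was 0.62 (SE 0.17, FDR 0.00228, limma), only 0.09 above the median of all genes. The call was lost in 6 of 32 alternatives, among them median of ratios scaling (log2FC 0.06, FDR 0.755) and the omission of NDWT 4 (0.54), HFWT 1 (0.54), HFWT 3 (0.57) or HFWT 5 (0.57). Without HFWT 4 it was 0.84.

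Ecm1 did not follow the other members. It read 69.155, 70.33, 46.618, 44.173 and 50.384 FPKM in NDWT and 67.258, 62.835, 54.629, 31.021 and 28.708 in HFWT. The groups overlapped, and HFWT 4 and 5 lay below every NDWT library. The log2FC was −0.26 (SE 0.21, FDR 0.271, limma), or −0.79 relative to the median of all genes, and 10.5% of tested genes had a lower value. Without HFWT 4 it was −0.12 and without HFWT 5 −0.09.

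In libraries labelled TSP-1 null the same comparison gave 8 members higher and 0 lower in HFKO than in NDKO, where 41.9% of all tested genes were called higher and 4.00% lower. For 9 members all HFKO libraries lay above all NDKO libraries, as for 52.7% of all tested genes. The median log2FC was 1.5 over the members and 0.50 over all genes. The calls over all genes split 91.3% higher on the deposited scale, 60.5% under median of ratios and 52.6% under quantile normalization. Of all genes, 3067 were called higher and 2004 lower of 14322 tested under median of ratios. Under quantile normalization the numbers were 2421 and 2186 of 14524. Under median of ratios scaling and under quantile normalization 7 members were called higher and 1, Ecm1, lower, since Reln was no longer called (log2FC 0.23 and 0.20).

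Acta2 had its largest log2FC here, 3.17 (SE 0.29, FDR 1.43e-08, limma), from 0.082, 0.173, 0.39, 0.632 and 0.222 FPKM in NDKO 1 to 5 to 2.06, 3.518, 2.403, 4.403 and 3.712 in HFKO 1 to 5. The lowest NDKO library rested on 3 fragments and the highest on 18, so the fold of this gene depends on the pseudocount (log2FC 1.68 to 3.64 over the alternatives, called in 32 of 32). Tagln was higher by a log2FC of 2.16 (SE 0.17, FDR 1.26e-09), from 2.838 to 3.866 to 11.937 to 19.918 FPKM. Myl9 was higher by 2.01 (SE 0.23, FDR 2.75e-07), from 0.455 to 1.001 to 2.339 to 4.426 FPKM. All 3 contractile members thus rose in both genotypes.

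Vim rose from 7.287 to 10.81 FPKM in NDKO to 56.1 to 107 in HFKO (log2FC 3.09, SE 0.14, FDR 2.13e-12). Its HFKO libraries were spread more widely than those of HFWT, with a coefficient of variation of 24.0%. Des rose by a log2FC of 1.6 (FDR 8.00e-09), Ngfr by 1.34 (FDR 8.35e-06), Hand2 by 1.40 (FDR 4.51e-07) and Reln by 0.75 (FDR 0.00162), each without overlap of the groups. Relative to the median of all genes the difference of Reln was 0.26.

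Colec11 read 29.742, 28.768, 31.131, 29.177 and 26.538 FPKM in NDKO and 33.698, 39.201, 42.81, 33.841 and 38.397 in HFKO. The groups did not overlap, but the log2FC of 0.37 (SE 0.17, FDR 0.0546, limma) did not pass the threshold, and relative to all genes it was −0.13. Ecm1 ran from 61.097 to 85.753 FPKM in NDKO and from 43.872 to 61.636 in HFKO. Its log2FC of −0.51 (SE 0.21, FDR 0.0340, limma) passed the FDR but not the fold threshold. Without HFKO 4, the highest HFKO library, it was −0.58 and was called lower.

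**Figure D2:**
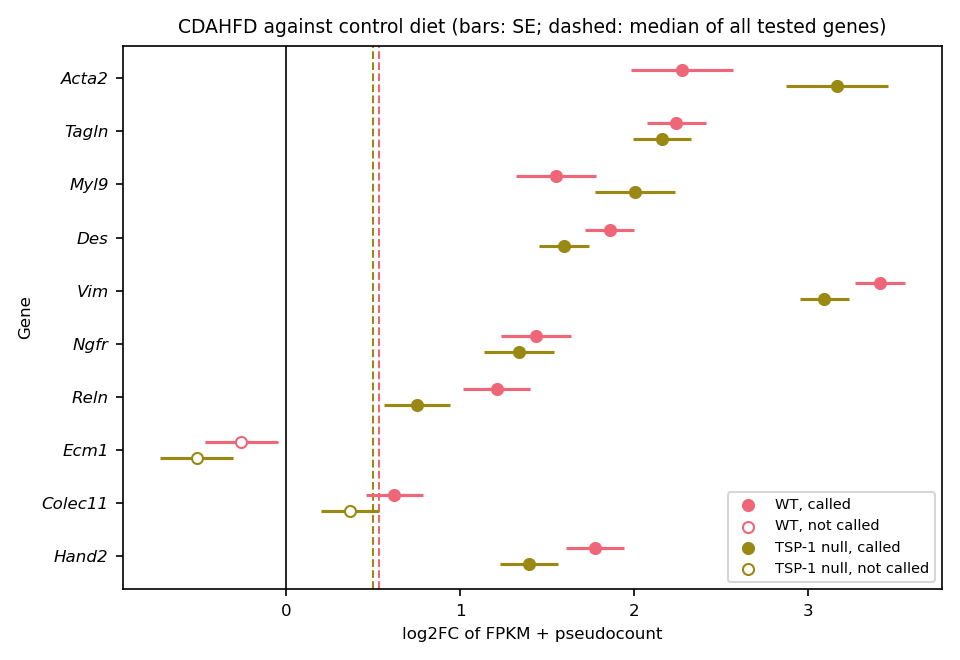
Log2FC of CDAHFD against control diet for the 10 markers, on log2(FPKM + 0.1), in WT (5 against 5 livers) and in libraries labelled TSP-1 null (5 against 5), with SE as bars, filled points for genes called and dashed lines at the median of all tested genes (0.53 and 0.50). Vim stands at 3.41 and 3.09, Ecm1 at −0.26 and −0.51, and Colec11 close to the dashed lines.

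Between the diets the order of the levels changed. In HFWT Vim stood first (median 94.0 FPKM, 90.7 to 99.3), apart from Ecm1 (54.6 FPKM, 28.7 to 67.3), which overlapped with Colec11 (42.9 FPKM). Tagln, Hand2, Reln, Ngfr, Des, Acta2 and Myl9 followed with medians from 15.7 down to 3.40 FPKM, each overlapping with the next. In HFKO Vim (74.6 FPKM) overlapped with Ecm1 (51.8 FPKM), which lay apart from Colec11 (38.4 FPKM). Acta2, the lowest of the 10 in both control diet groups, stood just above Myl9 in both CDAHFD groups, with medians of 3.87 and 3.52 FPKM, and overlapped with it.

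The second question was whether the markers differed by genotype. On the control diet 0 members were called higher and 1, Acta2, lower in NDKO than in NDWT. Of all tested genes 1.74% were called higher and 3.03% lower. The calls over all genes split 36.5% higher, 51.8% under median of ratios and 51.0% under quantile normalization, and under both scalings Acta2 was again the member called lower. Of all genes, 347 were called higher and 323 lower of 14322 tested under median of ratios. Under quantile normalization the numbers were 246 and 236 of 14524. The Acta2 values of NDKO given above lay below the NDWT range of 0.631 to 0.72 FPKM in 4 libraries, and NDKO 4, at 0.632, lay inside it. The log2FC was −1.13 (SE 0.29, FDR 0.0155, limma) on 3 to 18 fragments in NDKO and 19 to 29 in NDWT. The call was lost with a pseudocount of 1 (log2FC −0.38, FDR 0.132), in a fit of only the groups compared (−1.13, FDR 0.0562) and with limma voom on recovered fragments (−1.49, FDR 0.0546). With each library left out in turn the log2FC ran from −1.39 to −0.88 and kept its call.

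The other contractile members were not called, and no test compared them with Acta2. Tagln ran from 2.623 to 3.362 FPKM in NDWT and from 2.838 to 3.866 in NDKO (log2FC 0.16, FDR 0.586). Myl9 had a log2FC of −0.38 (SE 0.23, FDR 0.305), with overlapping groups. In a list of 22 further contractile genes, of which 17 were tested, 1 was called lower and 0 higher: Tpm2, a tropomyosin of smooth and slow muscle, ran from 1.202 to 1.994 FPKM in NDWT and from 0.459 to 1.03 in NDKO (log2FC −1.06, SE 0.22, FDR 0.00352, limma), and its call was lost only with a pseudocount of 1, of 32 alternatives. Of the 17 genes 15 had a negative log2FC, with a list median of −0.21 against −0.07 over all genes. Besides Tpm2, Vcl (log2FC −0.36, FDR 0.0734) and Myl6 (−0.22, FDR 0.0336, under the fold threshold) had all NDKO libraries below all NDWT libraries. Negative values were not particular to contractile genes: 7 of 8 endothelial and 6 of 7 macrophage markers had them as well. Of 18 other stellate cell genes 15 had a positive log2FC and 3 a negative one.

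The remaining 7 members each had a positive log2FC on the control diet and none passed the threshold. Reln was the only one of the 10 whose groups did not overlap, with 3.305 to 3.933 FPKM in NDWT and 4.17 to 5.265 in NDKO (log2FC 0.35, SE 0.19, FDR 0.257), where 9.03% of all tested genes had groups without overlap. Hand2 had the largest of these values, a log2FC of 0.43 (SE 0.17, FDR 0.102), and Ecm1 one of 0.41 (SE 0.21, FDR 0.215). The median was 0.23 over the members and −0.07 over all tested genes. Hepatocyte markers moved in this comparison as well: of 8 tested, 3 were called higher in NDKO, namely the urea cycle genes Cps1 (log2FC 1.10) and Ass1 (1.08) and the gluconeogenic gene Pck1 (0.82). Under median of ratios scaling 4 of the 8 were called, and under quantile normalization 2, where Pck1 was not (log2FC 0.60, FDR 0.0698). The summed FPKM of the 8 ran from 38587 to 44915 in NDWT and from 43494 to 51079 in NDKO. Most of this sum was Alb, which was not called (log2FC 0.15, FDR 0.528, limma). The part of the hepatocyte markers in the values of the members was not tested.

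On CDAHFD 0 members were called in either direction by limma, or by limma voom on recovered fragments, where limma called 0.496% of all tested genes, and 1 member, Vim, had an unadjusted p under 0.05. None of the 10 had groups without overlap, against 4.98% of tested genes. The log2FC ran from −0.30 (Vim, SE 0.14, FDR 0.284) to 0.23 (Ngfr, SE 0.20, FDR 0.58), with a median of 0.02 over the members and −0.10 over all genes. The calls over all genes split 33.3% higher, 57.6% under median of ratios and 62.5% under quantile normalization. Acta2 ran from 2.477 to 5.228 FPKM in HFWT and from 2.06 to 4.403 in HFKO (log2FC −0.24, SE 0.29, FDR 0.703). With SEs from 0.14 to 0.29, differences of this size could not be told from the spread between livers. Larger ones could also have been missed, since a call needed an FDR under 0.05 and an absolute log2FC above 0.58.

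**Figure D3:**
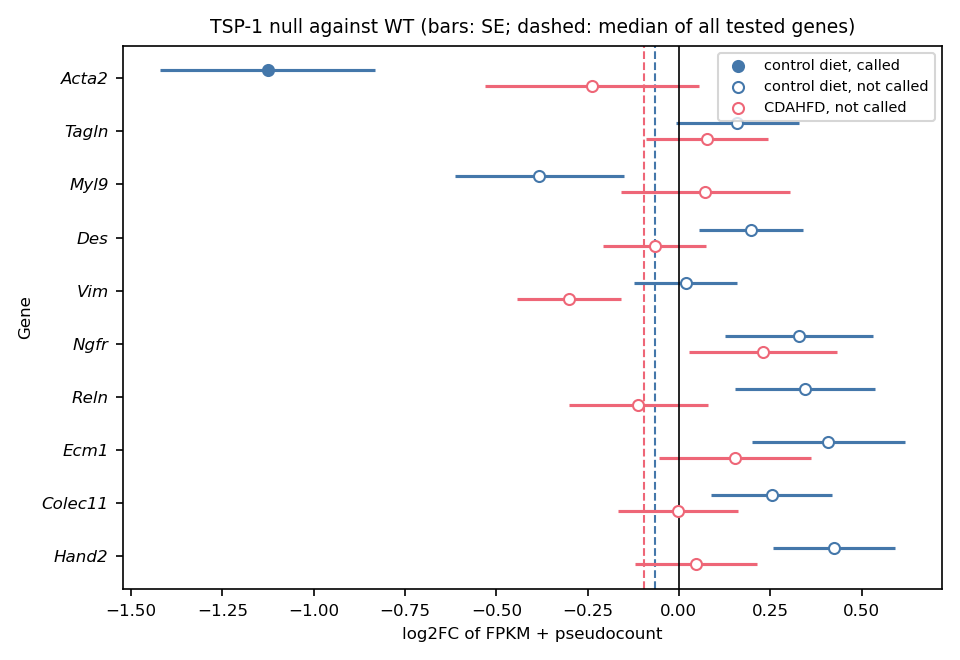
Log2FC of libraries labelled TSP-1 null against WT for the 10 markers, on log2(FPKM + 0.1), on control diet and on CDAHFD (5 against 5 livers each), with SE as bars, filled points for genes called and dashed lines at the median of all tested genes (−0.07 and −0.10). The filled point is Acta2 on control diet at −1.13, and all values on CDAHFD lie between −0.30 and 0.23.

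Whether the genotype difference changed with the diet was tested as an interaction, the log2FC between genotypes on CDAHFD less that on control diet. By limma, and by limma voom, 0 of the 10 members passed, where limma called 0.647% of all tested genes, and 1 member had an unadjusted p under 0.05. That member was Acta2, with an interaction of 0.89 (SE 0.41, FDR 0.315). The call of Acta2 on control diet and its absence on CDAHFD were thus not shown to differ. The other 9 ran from −0.46 (Reln) to 0.45 (Myl9).

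Livers of a group differed from each other in a way that several members shared. In HFWT, library 1 was highest for 8 members and library 4 lowest for 7 (Acta2, Myl9, Des, Ngfr, Reln, Colec11 and Hand2). In NDWT, library 2 was highest for 7 and library 4 lowest for 6, and in HFKO, library 5 was highest for 7. Over deviations from the group means in the 20 libraries, the 45 pairs of members had a median Pearson r of 0.44 (−0.29 to 0.80), a description over points that share their library and its depth. Ngfr correlated with Des, Reln, Ecm1 and Colec11 at 0.74 to 0.75 each, and Des with Ecm1 at 0.77. The highest value, 0.80 for Reln and Colec11, had a Spearman rho of only 0.45, and in both genes HFWT 4 stood far below the rest of its group. Among the contractile genes r was 0.58 for Acta2 and Tagln, 0.65 for Tagln and Myl9 and 0.38 for Acta2 and Myl9. Acta2 and Vim were at −0.29.

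**Figure D4:**
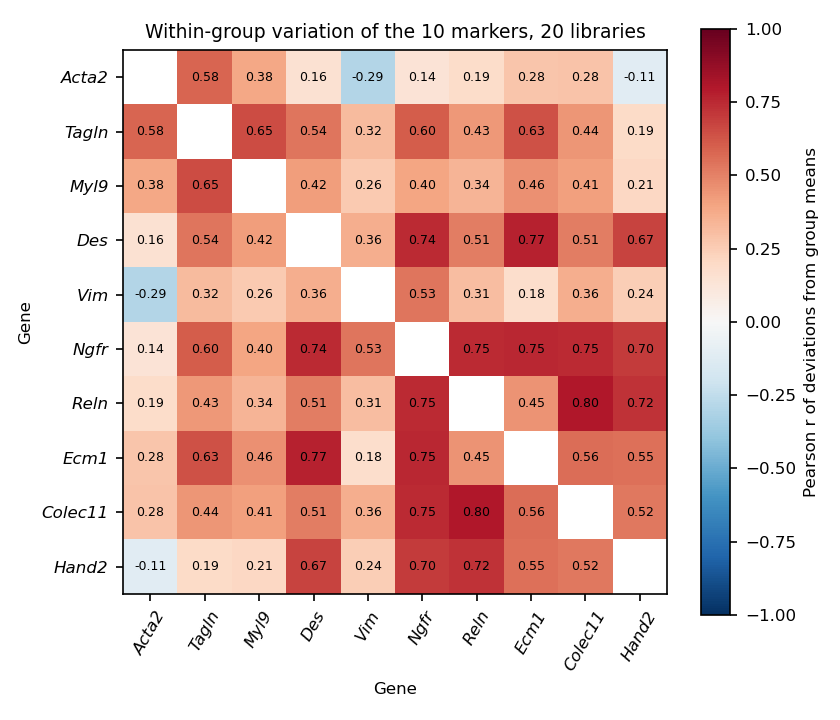
Pearson r between the deviations of each pair of the 10 markers from their group means in log2(FPKM + 0.1), over 20 libraries, with red for positive and blue for negative values. The block from Des to Hand2 other than Vim holds values from 0.45 to 0.80, and Acta2 reaches −0.29 with Vim.

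Over all tested genes, those whose within-group deviations were most like a member's were also listed. For Reln they were Fbn1, Col14a1 and Lamb1 (r 0.93 to 0.92), for Ngfr Prelp, Plvap and Pth1r (0.92 to 0.88) and for Colec11 Bmp5, Ednra and Gdf2 (0.90 to 0.89). For Des they were Arhgef10l, Rnf187 and Tmem109 (0.91 to 0.90), for Ecm1 Dph2, Plvap and Snx3 (0.91 to 0.86) and for Hand2 Sav1, Lhfp and Inpp5a (0.87 to 0.85). For Vim they were Trpv2, Was and Arhgap25 (0.91 to 0.89). The contractile genes had looser partners, Impdh2, Nomo1 and Gm16754 for Tagln (0.84 to 0.79), Rps15a-ps7, Cables1 and Jam3 for Myl9 (0.82 to 0.79) and Zfp59, Zfp770 and Fam98a for Acta2 (0.79 to 0.76). None of the 30 was itself a member.

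Lists of genes that work with the members were read beside them on the diet. The shares of all tested genes called higher (44.1% and 41.9%) and lower (4.62% and 4.00%) given above apply on the deposited scale only. For counts under the other scalings, the numbers of all genes called under each scaling, given above, apply. Some listed genes lay at or under 0.5 FPKM in every control diet library and passed the filter on low values only through CDAHFD, so that they had to be higher there, and counts are also given without them. Of 17 tested contractile genes 14 were called higher in WT and 16 in TSP-1 null, and 0 lower (13 and 15 of 16 without Myh11, at most 0.474 FPKM on control diet). Tpm1 and Tpm4, which encode tropomyosins, had log2FC of 2.25 and 1.93 in WT, and Flna and Csrp1, an actin cross-linker and a LIM protein of smooth muscle, 2.87 and 2.43. With median of ratios scaling 9 and 10 of the 17 were called higher, and under quantile normalization 10 and 11, with 1 lower in WT. Actg2, Cnn1, Lmod1, Synpo2 and Myocd, of which Cnn1 and Myocd are typical of smooth muscle proper, were too low to be tested, and Myocd had at most 5 fragments in any library.

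Of 18 other stellate cell genes 14 were called higher and 2 lower in WT. In TSP-1 null the counts were 12 and 2, and under median of ratios scaling 9 and 3 (WT) and 9 and 4 (TSP-1 null). Pdgfra (log2FC 3.00 in WT), Cygb, the stellate cell globin (2.90), Pdgfrb (2.69) and Dcn, a proteoglycan (2.22), rose, while Colec10 (−1.30), a partner of Colec11 in complement, and Angptl6 (−0.88) fell. All 12 tested genes for matrix made by activated fibroblasts were called higher in both genotypes. Timp1 and Lox (at most 0.262 and 0.145 FPKM on control diet) were tested only through CDAHFD, and the other 10 were all called. For the 12, the list medians of log2FC were 3.94 (WT) and 3.60 (TSP-1 null), and among them were the fibrillar collagen genes Col1a2 (4.20) and Col3a1 (4.46), Lum (4.20) and Mmp2 (4.18). Under median of ratios scaling and quantile normalization all 12 were again called higher in both. In WT the log2FC of Vim, the highest of the members (3.41), lay below the median of this list. In TSP-1 null that of Acta2, the highest there (3.17), also lay below it.

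Around Ngfr, the receptor gene Sort1 rose in both genotypes (log2FC 2.09 in WT). The neurotrophin gene Ntf3 (2.64) and the receptor gene Ntrk2 (3.80) were tested only through CDAHFD, with at most 0.441 and 0.232 FPKM on control diet. The reelin receptors Vldlr and Lrp8 and their adaptor Dab1 had group medians of at most 0.453 FPKM and were not tested. Around Colec11, by contrast, 4 of 5 lectin pathway genes were called lower in WT and 3 of 5 in TSP-1 null, with 0 higher. The lectin genes Mbl2 (−1.40) and Mbl1 (−0.63), Colec10 and the protease gene Masp2 (−0.60) fell in WT, whereas Masp1 had a log2FC of 0.38. The other 8 tested intermediate filament genes were all called higher in both genotypes (6 of 6 without Synm and Krt7, at most 0.326 and 0.153 FPKM on control diet). Under median of ratios scaling and under quantile normalization 7 were called in WT and 6 in TSP-1 null. They include the keratin genes Krt8 (2.15), Krt18 (1.31) and Krt19 (3.88), which mark epithelial cells, and the lamin gene Lmna (1.68). Nes, a filament gene of progenitor and stellate cells, was called lower in NDKO (0.272 to 0.339 FPKM) than in NDWT (0.472 to 0.783 FPKM), with a log2FC of −0.71 (SE 0.17, FDR 0.00949, limma), and lost this call only with a pseudocount of 1, of 32 alternatives.

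**Figure D5:**
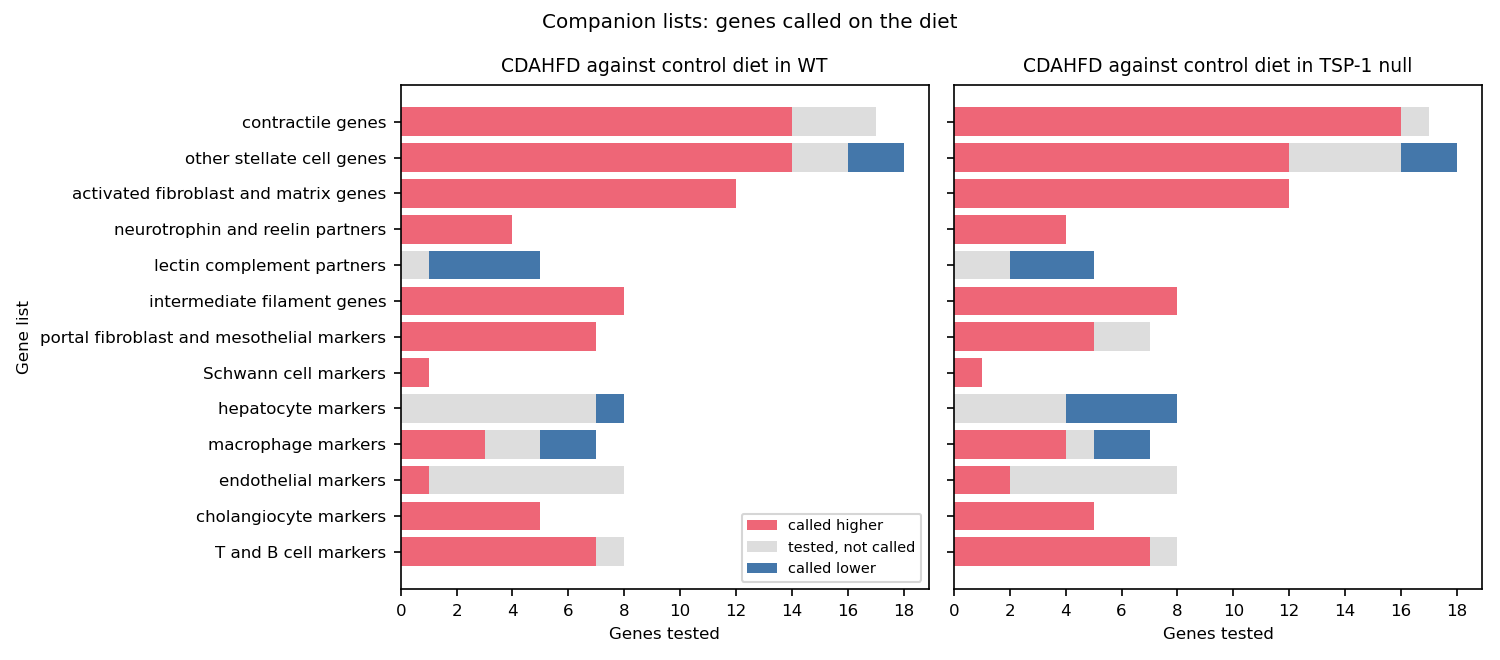
Numbers of tested genes called higher, called lower or not called on CDAHFD against control diet, by gene list, in WT and in libraries labelled TSP-1 null (genes can stand in more than 1 list). All 12 activated fibroblast and matrix genes are called higher in both (2 of them tested only through CDAHFD), and of the 5 lectin complement partners 4 and 3 are called lower.

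Markers of other cells that can carry these transcripts were read in the same way. Portal fibroblast and mesothelial markers (7 of 10 tested) summed to 3.867 to 7.676 FPKM in NDWT, 5.013 to 6.396 in NDKO, 37.1 to 88.5 in HFWT and 37.5 to 56.5 in HFKO, with 7 called higher in WT and 5 in TSP-1 null, among them Eln (log2FC 4.31 in WT), Cd34 (3.38) and Entpd2 (2.28). Without Fbln1, at most 0.295 FPKM on control diet, 6 and 4 of 6 were called, and with it 5 and 5 of 7 under median of ratios scaling and 5 and 4 under quantile normalization, with 1 lower in TSP-1 null. Cholangiocyte markers (5 of 6 tested) summed to 15.2 to 18.0 FPKM in NDWT and 292 to 488 in HFWT, with all 5 higher in both genotypes, such as Spp1 (4.76) and Epcam (4.54), also under both scalings, and with 4 of 4 higher without Krt7. Spp1 alone made up most of this sum, with 12.0 to 15.2 FPKM in NDWT and 268 to 446 in HFWT. T and B cell markers summed to 2.936 to 5.874 FPKM in NDWT and 16.3 to 23.0 in HFWT, with 7 of 8 higher in both genotypes, or 5 of 6 without Cd8a and Ms4a1 (at most 0.364 and 0.439 FPKM on control diet). With median of ratios scaling 6 of the 8 were called higher in WT and 3 in TSP-1 null. Under quantile normalization 4 were higher in WT, and 1 higher and 1 lower in TSP-1 null. Of the Schwann cell markers, cells that also express Ngfr, Mbp was the only 1 of 5 tested, and only through CDAHFD (at most 0.231 FPKM on control diet), so its log2FC of 3.01 follows in sign from the filter. The list summed to 0.497 to 0.877 FPKM in NDWT and 1.883 to 3.05 in HFWT, and Sox10, which defines these cells, was at a median of 0 in all groups but HFKO, with at most 4 fragments in any library. Endothelial markers summed to 71.0 to 76.2 FPKM in NDWT and 61.5 to 90.9 in HFWT, with 1 of 8 higher in WT (Lyve1, 1.10) and 4 lower under median of ratios scaling and under quantile normalization. Hepatocyte markers summed to 38587 to 44915 FPKM in NDWT and 29036 to 41251 in HFWT, with 1 of 8 lower in WT and 4 in TSP-1 null (7 and 6 under median of ratios scaling, 0 and 0 under quantile normalization). Most of this sum was Alb, which was not called in WT (log2FC −0.13). The part of all these cell types in the differences of the 10 members was not tested.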

How the data were processed

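Liver RNA of 20 mice was sequenced as poly(A) libraries on an Illumina instrument, and the authors processed the reads with QuickRNASeq (STAR 2.5.2, Subread 1.5.1 with featureCounts, per the labels). The deposited values are FPKM to 3 decimals for 38924 genes, made by the authors without scaling between libraries. The labels name a human build, but of 37607 identifiers found in GENCODE M21, 99.8% overlapped that gene on GRCm38, the build used here. FPKM times gene length gave back whole fragments for at least 99.99% of the values checked (tolerance at most 0.3 fragments), with 15641545 to 23276322 fragments per library. These depths cover counting error only, since no molecular identifiers are named.

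The authors tested with limma, whose pseudocount and trend setting are not given in the sources used here. Here limma (version 3.58.1, R version 4.3.3, empirical Bayes with a trend) was run on log2(FPKM + 0.1) for 14524 genes, with all 20 libraries in 1 fit without covariates, two-sided, and FDR is by Benjamini-Hochberg within a comparison. SE is the moderated standard error. The fit was tested on simulated data. No 2 libraries of a group were copies (chi-square per degree of freedom at least 13.0). Each sample is 1 mouse.

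The 10 markers and the 13 companion lists were chosen with earlier results of these data known, so counts over them are descriptions. Genes were named by a rule: the members, Thbs1, of each list at most 4 called genes with the lowest FDR in WT and at most 4 called by genotype, the 3 genes most like each member, defining markers of other cells and overlapping genes. Lrat, Angptl6, Masp1, the genes too low to test or tested only through CDAHFD, and those that hold a CArG box were added after their values were seen. Promoter sequences are from RefSeq (GRCm38.p6). Alternatives were other pseudocounts, filters, scalings, fits, voom on recovered fragments, a replicate block and each library left out. Some genes of the companion lists are not reported here.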

Additional observations from a re-analysis of the deposited data

Results flagged for a closer look

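Of 40 groups of 5 livers (10 members in 4 groups), 2 held a library whose gap to the rest exceeded 0.71 of the group's range, Dixon's 95% limit, where chance alone gives about 1 in 20. Des in HFWT 1 stood at 6.312 FPKM, above the other 4 HFWT libraries (3.752 to 4.34 FPKM), with a gap of 0.77 of the range. Colec11 in HFWT 4 stood at 20.44 FPKM, below the other 4 (40.904 to 47.129 FPKM), with a gap of 0.767 of the range. No member passed the test of the interaction.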

How the results depend on the processing

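Each count of called members and each log2FC was recomputed under 32 alternatives, 20 of which left out 1 library. Of 318 values of the counts, 310 were equal to the count of the main fit or close to it, 3 were weaker and 5 stronger. Under both median of ratios scaling and quantile normalization, the number higher fell from 9 to 8 (diet, WT) and from 8 to 7 (diet, TSP-1 null). These falls are among the 310. The number lower on the diet rose from 0 to 1 (Ecm1) in WT under median of ratios scaling, and in TSP-1 null under median of ratios scaling, quantile normalization and without the fold change threshold. With 1 library left out it ran from 0 to 1 in TSP-1 null (1 without HFKO 4). The number lower in NDKO fell from 1 to 0 (Acta2) with a pseudocount of 1, with only the groups compared and with voom. Of 1782 values of single genes, 1732 stayed the same, 14 were weaker, 5 stronger and 31 reversed, and each reversed value lay near 0. The cause was not tested.

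Under median of ratios scaling Colec11 turned to −0.17 (diet, TSP-1 null) and 0.10 (genotype, CDAHFD) and Des to 0.033 (genotype, CDAHFD). Under quantile normalization Colec11 and Des were at 0.037 and 0.057 (genotype, CDAHFD) and Ngfr at 0.0061 (interaction). With 1 library left out, log2FC between genotypes on control diet ran from −0.059 to 0.091 for Vim. On CDAHFD it ran from −0.037 to 0.22 for Tagln, −0.058 to 0.16 for Myl9, −0.12 to 0.061 for Des, −0.36 to 0.018 for Reln, −0.016 to 0.29 for Ecm1, −0.22 to 0.080 for Colec11 and −0.084 to 0.13 for Hand2. The interaction ran from −0.20 to 0.062 for Tagln and from −0.27 to 0.027 for Ngfr.

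Deviations of same-numbered libraries from different groups correlated at −0.13 to 0.08. Between NDKO and HFWT these values ran from 0.025 to 0.081 (mean 0.056, against −0.014 for libraries of different number). Whether mice of the same number were paired cannot be decided from values this small. A replicate block left the counts at 9 higher and 0 lower (diet, WT), 8 and 0 (diet, TSP-1 null), 0 and 1 (genotype, control diet), 0 and 0 (genotype, CDAHFD) and 0 and 0 (interaction). Depth limits Acta2 most, with 3 fragments in its lowest library.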
